A study of Mus musculus with 80 samples.

Results

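The growth plates of mice that lack both gelatinases (MMPdKO) were compared with those of mice that lack MMP9 alone (MMP9-/-), so that the comparison asks what the loss of MMP2 adds in a growth plate that already has no MMP9. The members are the 14 growth plate libraries that the labels place in these genotypes, 7 MMPdKO and 7 MMP9-/-, of 80 libraries in the series. The other libraries come from WT and MMP2-/- growth plates and from the calvaria and cortical bone of all genotypes. All animals were female C57BL/6J mice at 21 days of age, and the growth plates were taken from cleaned tibiae. MMP9-/- mice carry knockout alleles of Mmp9 and intact Mmp2, and MMPdKO mice were bred from double heterozygotes of crossed MMP2-/- and MMP9-/- lines, so that both groups share the loss of MMP9. Both are knockouts of the whole animal and not of a single tissue. The libraries, from 30 ng of RNA per sample, were of a bulk MARS-seq type that reads the 3' ends of polyadenylated transcripts, and no mouse gave more than 1 of the 14.

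MMP2 (gelatinase A) and MMP9 (gelatinase B) are secreted zinc proteases that cleave denatured collagen, basement membrane collagen and other matrix proteins. In the growth plate, resting chondrocytes feed columns of proliferating cells, which enlarge into hypertrophic chondrocytes, and the cartilage around these is resorbed, invaded by vessels and replaced by bone. MMP9 is made mainly by osteoclasts and related cells at this front and is known for delayed resorption of hypertrophic cartilage when it is lost, while MMP2 is made mainly by stromal cells and fibroblasts and is activated at the cell surface by MMP14.

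Cartilage collagen genes were read as a check of the tissue label. Together they took 1.01 to 4.90% of the counts in MMP9-/- and 1.58 to 6.37% in MMPdKO libraries. In the calvaria and cortical bone of these genotypes they took 0.119 to 0.700%. The 1.01% was MMP9-/- replicate 7, which lay below a WT cortical bone library at 1.26%, so the check is weak for that library. It is weak too for some of the 13 WT and MMP2-/- growth plates used further below. WT replicates 2, 3 and 7 held 0.901, 0.911 and 0.646%, and MMP2-/- replicate 5 held 0.573%. The last 2 values lay within the range of calvaria and cortical bone given above. Col2a1, the main cartilage collagen, was at 3904 to 33402 CPM (counts scaled to a common library total) in MMP9-/- libraries and at 9254 to 46297 CPM in MMPdKO libraries. Other tissues were present as well: haemoglobin genes took 1.11 to 7.10% of the counts in MMP9-/- and 1.17 to 6.60% in MMPdKO libraries, and a list of skeletal muscle genes took 0.858 to 3.39% and 0.726 to 2.73%. In such bulk samples, fewer cells of a type and less RNA per cell cannot be told apart. Library totals were 538176 to 1899252 counts in MMP9-/- (median 988068) and 334395 to 808731 in MMPdKO (median 576016), so the MMPdKO values carry more counting error. The first principal component covered 31.7% of the variance, and on it MMP9-/- replicate 7 and MMPdKO replicates 3 and 6 lay apart from the rest, and replicate 6 was the shallowest library. MMP9-/- replicate 6 stood apart in its Mmp9 level, given next. Results were therefore computed without these libraries too.

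Mmp2 was the gene that changed. It lies on chromosome 8 (chr8:92827291-92853420, GRCm38; ENSMUSG00000031740). Its levels in the 7 MMP9-/- libraries were 455, 455.4, 486.4, 569.2, 328, 382.9 and 594.6 CPM. In the 7 MMPdKO libraries they were 17.31, 26.04, 48.58, 33.59, 16.57, 44.86 and 35.41 CPM. The groups did not overlap, and the lowest MMP9-/- library was far above the highest MMPdKO library. The means were 467 ± 94.7 CPM (SD, n = 7) and 31.8 ± 12.5 CPM (SD, n = 7), a log2 fold change of -3.91 (SE 0.23, edgeR quasi-likelihood test, adjusted p = 8.97e-10). WT growth plates held 265 to 576.8 CPM and MMP2-/- growth plates 4.437 to 35.49 CPM. The MMPdKO libraries were all far below the WT range. Those at 48.58 and 44.86 CPM lay above the MMP2-/- range and the others within it. Which part of the gene is deleted is not given in the sources used here, and the remaining counts could not be placed within the transcript.

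Mmp9 was low in both groups, as their labels state, but not in every library to the same degree. The MMP9-/- libraries held 187.8, 232.8, 318.7, 308.3, 274.8, 1000 and 483.1 CPM. The MMPdKO libraries held 322.7, 286.5, 621.3, 266.1, 377.9, 260.2 and 433.8 CPM. All were below the WT range of 1467 to 3915 CPM, and the 1000 CPM of MMP9-/- replicate 6 lay nearest to it. The calvaria and cortical bone of that same mouse held 134 and 190 CPM. The log2 fold change of Mmp9 was -0.10 (SE 0.29; 95% interval -0.70 to 0.50) with all libraries and 0.29 without MMP9-/- replicate 6, and neither value passed the test.

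**Figure D1:**
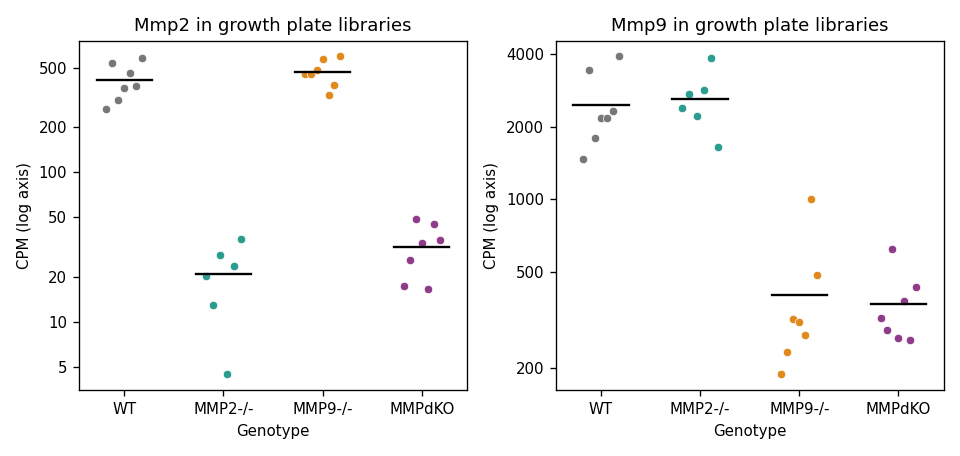
Mmp2 (left) and Mmp9 (right) in CPM on a log axis in the 27 growth plate libraries, by genotype, with 1 point per library and a line at the group mean. Mmp2 is at 16.57 to 48.58 CPM in MMPdKO against 328 to 594.6 CPM in MMP9-/-, while Mmp9 overlaps between these groups and reaches 1000 CPM in 1 MMP9-/- library.

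Over the whole transcriptome, no other gene passed the test. Of 10075 genes tested, 1 gene, or 0.00993%, was a differentially expressed gene (DEG), with a Benjamini-Hochberg adjusted p under 0.05 in edgeR and at least a 1.5-fold change. It was Mmp2, lower in MMPdKO, and 0 genes were higher. DESeq2 also called Mmp2 alone. At an unadjusted p under 0.05 there were 428 genes in edgeR, 4.25% of those tested, and 418 in DESeq2. The next smallest adjusted p in edgeR was 0.332, and the estimates were balanced, with 4959 genes above 0 and 5116 below, and a median log2 fold change of -0.0055. Without MMP9-/- replicate 6, and likewise without the 3 libraries apart on the first component, Mmp2 was again the only call, at log2 fold changes of -3.97 and -4.12. Mmp2, Rad1 and Fars2 were the 3 genes, 0.0298% of those tested, whose libraries did not overlap between the groups. Rad1, part of a DNA damage checkpoint clamp, was at 7.371 to 12.65 CPM in MMP9-/- and at 0 to 6.183 CPM in MMPdKO. It reached the filter of 15 counts only in the deeper MMP9-/- group, and its MMPdKO values rest on few counts, so its lack of overlap carries little weight. Fars2, the mitochondrial phenylalanine tRNA synthetase, was at 31.5 to 44.6 and 15.34 to 29.51 CPM. Neither of them passed adjustment.

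These data limit the size of a missed difference for some genes and not for others. The 95% intervals of the log2 fold change are per gene and not adjusted over all genes. They stayed within 1.5-fold in both directions for 3268 genes (32.4%) and within 2-fold for 7803 genes (77.4%). In simulated counts the edgeR test recovered 10.4% of 67 genes changed 1.5-fold, 52.2% of 67 changed 2-fold and 92.4% of 66 changed 4-fold. These genes were changed together, which eases the adjustment, so recovery may be lower where few genes change. Many 2-fold differences could thus be missed. The median distance from the estimate to the end of its interval was 1.70-fold under 20 CPM, 1.37-fold at 20 to 100 CPM and 1.24-fold at 500 CPM or more. Genotype accounted for 9.02% of the variance over the 1000 most variable genes (exact permutation test over all 3432 assignments of the libraries, p = 0.196). Without MMP9-/- replicate 7 it accounted for 12.9% (exact p = 0.0414), and without the 3 libraries apart on the first component for 11.2% (exact p = 0.160). With each of the other libraries left out, the exact p was 0.0927 to 0.431. The MMP9-/- libraries were mostly deeper, and the part of depth in this share was not tested.

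**Figure D2:**
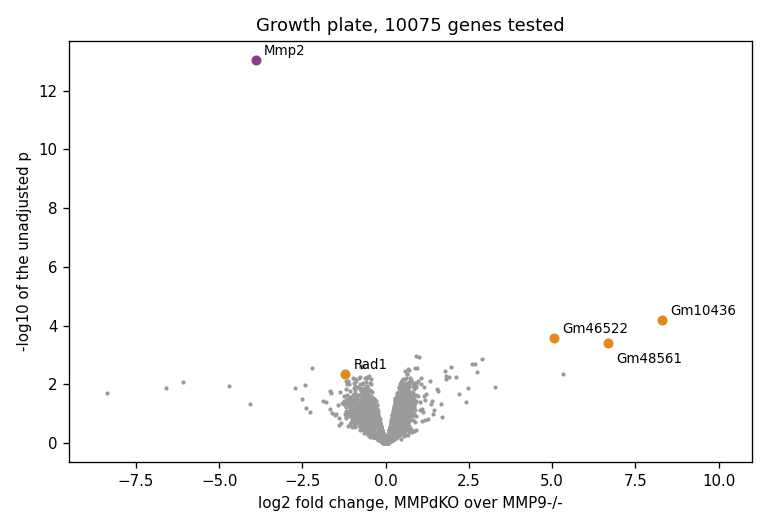
Each point is 1 of the 10075 genes tested, with the log2 fold change of MMPdKO over MMP9-/- on the x axis and -log10 of the unadjusted edgeR p on the y axis. Mmp2 (purple) stands alone at -3.91, and the labelled orange genes did not pass adjustment.

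The chondrocyte genes that define the growth plate did not pass the test, and their levels varied widely within each genotype. Col2a1 in the MMP9-/- libraries was 24787, 27953, 33402, 21045, 25919, 15474 and 3904 CPM. In the MMPdKO libraries it was 9254, 46297, 11508, 19755, 29472, 33733 and 22267 CPM. The MMPdKO range enclosed all MMP9-/- libraries but replicate 7, which was lower. The log2 fold change was 0.22 (95% interval -0.54 to 0.99), and it was 0.04 without that library.

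Acan, the large aggregating proteoglycan of cartilage, was at 616.9 to 3897 CPM in MMP9-/- and 1237 to 4437 CPM in MMPdKO, with a log2 fold change of 0.32 (95% interval -0.34 to 0.99). Col10a1, the collagen of hypertrophic chondrocytes, was at 5118, 3523, 7621, 6393, 6467, 5367 and 362.3 CPM in MMP9-/-. It was at 4433, 6403, 1716, 2712, 7476, 1322 and 3849 CPM in MMPdKO. The groups overlapped, and the estimate was -0.31 (95% interval -1.19 to 0.58), which spans both a loss of more than 2-fold and a gain. It was -0.51 without MMP9-/- replicate 7 and -0.53 without MMPdKO replicate 5, again without passing the test. Ihh, the hedgehog ligand made by prehypertrophic cells, was at 39.02 to 345.8 and 109.9 to 362.8 CPM, with an estimate of 0.17 (95% interval -0.51 to 0.85).

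The remaining defining markers gave estimates on either side of 0. Col9a1, a collagen on the surface of collagen II fibrils, gave -0.43, and the matrilins Matn1 and Matn3, which link matrix fibrils, gave -0.21 and -0.46. Cnmd (chondromodulin), which inhibits vessel growth in cartilage, gave -0.26, Comp, a pentameric matrix protein, 0.09 and Hapln1, which ties aggrecan to hyaluronan, -0.08. MMP9-/- replicate 7 was the lowest of its group in all 10 markers, as in Matn3, at 22.3 CPM against 251.3 to 554.5 CPM in the other 6. The estimates of Col2a1, Comp, Hapln1 and Ihh changed sign under some of the alternatives, so no direction is given for them.

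**Figure D3:**
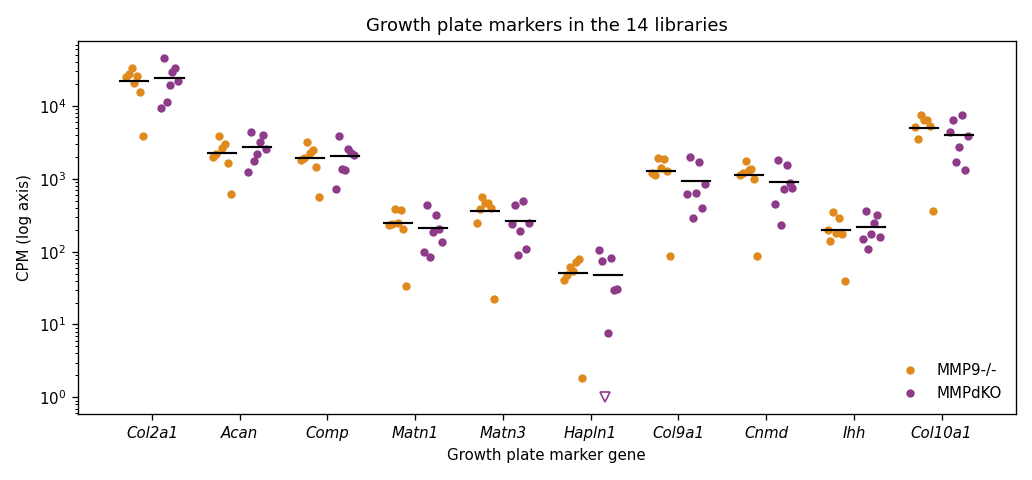
CPM on a log axis of 10 growth plate markers, with 1 point per library (orange MMP9-/-, purple MMPdKO) and a line at the group mean. The groups overlap in every marker, and the low orange point of each is MMP9-/- replicate 7. The open triangle stands for the MMPdKO library with 0 counts of Hapln1, drawn at 1 CPM.

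Among the other matrix metalloproteinases, 7 of 15 listed genes were tested, with 4 estimates above 0 and 3 below and a median of 0.13, and none passed the test. Mmp13, the collagenase of hypertrophic chondrocytes and osteoblasts, was at 26, 69.83, 55.67, 45.86, 17.38, 16.84 and 14.87 CPM in MMP9-/-. In MMPdKO it was at 68.01, 45.14, 84.37, 50.38, 58.01, 89.71 and 37.62 CPM. The MMPdKO mean was higher, but 3 MMP9-/- libraries lay within the MMPdKO range. The log2 fold change was 0.81 (SE 0.32, unadjusted p = 0.0199, adjusted p = 0.963 in edgeR), and it was 0.48 without the 3 libraries apart on the first component. Mmp15, a membrane-bound member, was at 17.33 to 37.34 and 28.44 to 52.97 CPM, with an estimate of 0.53 (adjusted p = 0.963, edgeR). Mmp14, which activates MMP2, was at 1247 ± 278 and 1486 ± 370 CPM (SD, n = 7 each), and its estimate of 0.28 had a 95% interval of -0.08 to 0.63.

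The tissue inhibitors of metalloproteinases did not pass either. Timp2, which binds MMP2 and takes part in its activation, was at 705 ± 134 and 754 ± 114 CPM (SD, n = 7 each; log2 fold change 0.13, 95% interval -0.16 to 0.42). Timp1, which binds MMP9, was at 246.9 to 657.8 CPM in MMP9-/- and 286.5 to 749.1 CPM in MMPdKO. Timp3, an inhibitor bound to the matrix, was at 133 ± 8.29 and 112 ± 25.2 CPM (SD, n = 7 each), with an estimate of -0.22 (95% interval -0.51 to 0.07).

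The 48 gene lists had no called member other than Mmp2, so they are described by their estimates, beside a median of -0.0055 over all tested genes. Of 13 tested genes of hypertrophic chondrocytes, 6 estimates were above 0 and 7 below (median -0.12). For 11 genes of resting and proliferating chondrocytes the split was 4 and 7 (median -0.20). The 17 osteoblast and bone matrix genes split 8 and 9 (median -0.01). Pth1r, the receptor for parathyroid hormone and its related peptide, was at 1194 ± 254 and 1465 ± 328 CPM (SD, n = 7 each; estimate 0.33, 95% interval -0.04 to 0.70). Hhip, an inhibitor that binds hedgehog ligands, was at 5.574 to 16.85 CPM in MMP9-/- and at 0 to 12.15 CPM in MMPdKO, with 2 libraries at 0 (estimate -1.17, adjusted p = 0.963 in edgeR).

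In lists of the matrix-producing machinery the estimates were small. For collagen folding and secretion, 19 of 20 tested genes had estimates above 0, with a median of 0.15 and a highest value of 0.30. None of the 20 reached an unadjusted p under 0.05. P3h4, which takes part in collagen lysine modification, was at 241.1 to 336.8 CPM in MMP9-/- and 292 to 421.9 CPM in MMPdKO. For 14 basement membrane genes, among them substrates of gelatinases, 12 estimates were above 0 (median 0.17). Hspg2 (perlecan) was at 181.6 to 356.8 and 189.2 to 465.3 CPM. Dcn (decorin), a small proteoglycan that binds collagen fibrils, was at 47.67, 49.59, 38.09, 60.09, 22.64, 33.68 and 29.73 CPM in MMP9-/-. In MMPdKO it was at 82.85, 65.97, 48.58, 63.3, 48.06, 59.81 and 64.18 CPM. Only 2 MMP9-/- libraries reached the MMPdKO range, and the estimate was 0.69 (SE 0.20, unadjusted p = 0.0029, adjusted p = 0.963 in edgeR).

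The lists of blood cell types had medians below 0, and they were not tested against each other. Estimates were below 0 for 23 of 24 erythroid genes (median -0.19), 12 of 13 B and lymphoid genes (median -0.16), 13 of 20 genes of neutrophils and their precursors (median -0.09) and 6 of 11 genes of megakaryocytes and platelets (median -0.01). In the cell division list, which is not tied to a cell type, 24 of 28 were below 0 (median -0.25). Genes of a list vary together across libraries, so these counts are not independent votes. With the 3 libraries apart left out the erythroid, B and lymphoid and cell division medians were -0.24, -0.17 and -0.25, and the erythroid median was 0.03 without MMP9-/- replicate 5. Ccna2 (cyclin A2) was at 13.01 to 54.23 CPM in MMP9-/- and 11.96 to 49.46 CPM in MMPdKO. Tyms, the thymidylate synthase of DNA synthesis, was at 53.2 ± 15.1 and 37.0 ± 12.3 CPM (SD, n = 7 each; estimate -0.50, adjusted p = 0.963 in edgeR). Apart from the gelatinases, the lowest median was that of marrow stroma and adipocytes, at -0.67 with 8 of 10 tested genes below 0. Adipoq (adiponectin), a marker of fat cells, was at 13.01 to 124.8 and 15.34 to 71.18 CPM, an estimate of -0.85 (95% interval -1.72 to 0.03). It moved to -0.39 with the erythroid score of the libraries as a covariate.

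Osteoclast genes had 9 of 11 estimates above 0 (median 0.18), and the lowest, -0.10, was that of Mmp9, which is knocked out in both groups. Acp5, the acid phosphatase that marks osteoclasts, was at 6889 to 12758 CPM in MMP9-/- and 6451 to 12903 CPM in MMPdKO. Clcn7, the chloride transporter of the resorbing membrane, was at 82.5 ± 20.2 and 104 ± 14.6 CPM (SD, n = 7 each; estimate 0.38, adjusted p = 0.963 in edgeR). Of 17 macrophage and antigen presentation genes, 11 had estimates below 0, and the 3 with an unadjusted p under 0.05 were C1qa, C1qb and C1qc, which encode the chains of complement C1q. C1qc was at 102.6, 92.1, 51.28, 60.09, 63.18, 62.23 and 68.75 CPM in MMP9-/-. In MMPdKO it was at 40.8, 36.46, 25.57, 62.01, 33.15, 56.82 and 30.98 CPM. MMPdKO replicates 4 and 6 lay within the MMP9-/- range and the other 5 below it, and the estimate was -0.75 (SE 0.22, unadjusted p = 0.00232, adjusted p = 0.963 in edgeR). C1qa and C1qb gave -0.49 and -0.55. The median of the list was -0.13 and its highest estimate 0.12. Csf1r and Cd68, markers of the same lineage named after their values were seen, gave 0.08 and 0.12.

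Skeletal muscle genes had 14 estimates above 0 and 17 below (median -0.05). The slow-muscle genes Tnni1 and Myh7 gave 1.33 and 1.39, and both were carried largely by MMPdKO replicate 5, with 43.09 and 71.26 CPM against at most 12.15 CPM in the other 6 MMPdKO libraries. Without that library Myh7 gave 0.25.

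**Figure D4:**
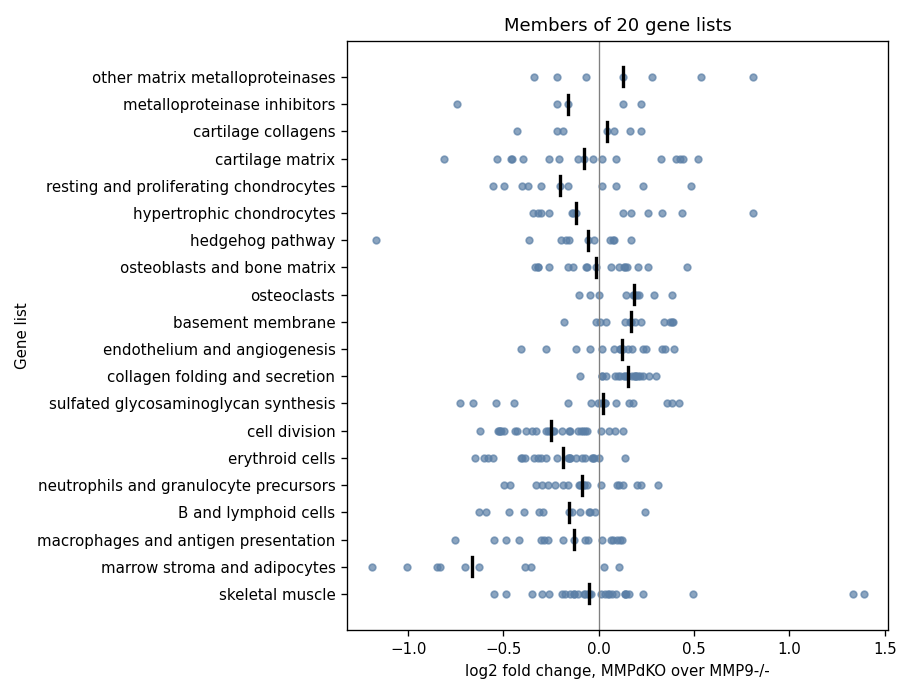
Log2 fold change of MMPdKO over MMP9-/- for the tested members of 20 gene lists, with 1 point per gene and a black bar at the list's median. Estimates for collagen folding lie narrowly above 0 (median 0.15), and those of marrow stroma and adipocytes lie lowest (median -0.67). None of the genes shown passed the test.

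The genes with the smallest p after Mmp2 fell into those carried by single libraries and those spread over the group. Gm10436 (chr12:88175589-88182108), a predicted gene, had 351.2 and 263.4 CPM in MMPdKO replicates 1 and 7 and 0 in the other 5, with 0.7326 CPM in 1 MMP9-/- library and 0 in 6. It also reached 106 CPM in 1 WT library. Gm46522 and Gm48561 were at 72.95 and 180.5 CPM in MMPdKO replicate 1, and no other MMPdKO or MMP9-/- library exceeded 2.557 CPM for either. Gm10481 was at 161.5 CPM in MMPdKO replicate 2, Mylf-ps at 53.83 CPM in replicate 6 and Rpl10-ps1 at 117.7 CPM in replicate 5, against at most 19.92 CPM in the other libraries. Predicted genes and pseudogenes can share reads with near-identical copies, so these values are uncertain.

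Among protein-coding genes, Clip2, a linker of microtubules to membranes, was at 30.34, 29.35, 33.7, 39.53, 28.43, 24.16 and 48.31 CPM in MMP9-/-. In MMPdKO it was at 48.22, 39.93, 61.36, 43.92, 44.75, 104.7 and 90.74 CPM. The groups overlapped by a single MMP9-/- library, and the estimate was 0.91 (SE 0.24, unadjusted p = 0.0011, adjusted p = 0.963 in edgeR). The mitochondrial gene mt-Nd1, a subunit of respiratory complex I, was at 55.8 ± 22.8 and 108 ± 33.7 CPM (SD, n = 7 each; estimate 1.00). Mitochondrial transcripts together took 0.0474 to 0.0823% of MMP9-/- and 0.0602 to 0.118% of MMPdKO counts. The part of RNA quality in this was not tested. Ptk7, a membrane receptor of planar cell polarity, gave 0.90, with 39.02 CPM in MMP9-/- replicate 7 against 14.23 to 21.98 CPM in the rest of that group.

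In the other direction, Tm7sf3 and Mllt10, a chromatin reader, gave -0.69 and -0.75. Tm7sf3 was at 26.01 to 45.86 CPM in MMP9-/- and 11.96 to 27.2 CPM in MMPdKO, and Mllt10 at 26.01 to 43.34 and 8.853 to 26.52 CPM. A single MMPdKO library reached the MMP9-/- range in each case. Rcn2, a calcium-binding protein of the endoplasmic reticulum, gave -0.78, Casp6, an executioner caspase, -0.63 and Baz2b, a bromodomain protein, -0.51. All had an adjusted p of 0.963 in edgeR.

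Whether the loss of MMP2 had another effect with MMP9 present was tested in the 27 growth plate libraries. The contrast of MMPdKO over MMP9-/- against MMP2-/- over WT had 0 called genes of 10461 tested (0% called), with 519 at an unadjusted p under 0.05 in edgeR, and DESeq2 called 0 with 525. In simulated counts this contrast recovered 25.4% of 67 genes changed 2-fold and 63.6% of 66 changed 4-fold in edgeR. Here too the genes were changed together, so recovery may be lower where few genes change. The 0 calls therefore do not show that the effects are equal. For Mmp2 itself the log2 fold changes were -3.91 without MMP9 and -4.35 with it, a difference of 0.45 (SE 0.40, adjusted p = 0.953 in edgeR). For C1qc they were -0.75 and -0.08 (difference -0.68, adjusted p = 0.921 in edgeR). For Clip2 they were 0.91 and 0.11, and for Mmp13 0.81 and 0.56, neither differing past the threshold. The comparison of MMP2-/- with WT, on 6 and 7 other libraries, called 5 of 9717 genes (0.0515%), Mmp2, Cap1, Ybx1-ps2, Gm7859 and AC131705.1.

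The same genotypes were also set beside each other in 2 other bones, where 6 of the 7 mice of each group gave a calvaria and 5 a cortical bone library as well. In calvaria 2 of 10447 genes (0.0191%) passed adjustment, Mmp2 and Sost, and in cortical bone 1 of 8621 (0.0116%), Mmp2. The Mmp2 log2 fold changes there were -4.98 and -4.02. Sost, a WNT inhibitor from osteocytes, was at 18.97 to 41.89 CPM in MMP9-/- and 17.71 to 72.91 CPM in MMPdKO growth plates. Between growth plate and calvaria 0 of 11002 genes differed in their response past the threshold (0% called; 471 at an unadjusted p under 0.05 in edgeR, and 0 called with 457 in DESeq2). Between growth plate and cortical bone it was 0 of 11002 as well (0% called; 334 in edgeR, and 0 called with 330 in DESeq2). In counts simulated in the same way, the tests against calvaria and cortical bone recovered 23.9% and 31.3% of 67 genes changed 2-fold in edgeR. Most differences of that size would thus be missed. Dcn gave 0.69 in the growth plate, 0.31 in calvaria and -0.83 in cortical bone, and mt-Nd1 gave 1.00, -0.49 and -0.64. Neither difference passed adjustment.

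Genes near Mmp2 can be inherited together with the knockout allele, and the effect of such a linked segment and of MMP2 loss cannot be told apart in this design. Of the 25 table genes on either side of Mmp2 (chr8:88118769-94838358), 32 were tested. None passed adjustment, and 6 had an unadjusted p under 0.05 in edgeR (18.8%, against 4.25% of all genes), 5 of them lower in MMPdKO. Around Mmp9, where both groups carry the same deletion, it was 1 of 39. In the calvaria of the same genotypes it was 2 of 35 genes around Mmp2 (5.71%, against 4.05% of all genes). In cortical bone it was 5 of 25 (20%, against 2.39%), and in MMP2-/- against WT growth plates 6 of 31 (19.4%, against 7.83%). Most of these genes were not the same in each comparison. Of the first 6, Lpcat2 and Ciapin1 had an unadjusted p under 0.05 in edgeR in every one of them. Cnep1r1, Tent4b, Gm45640 and Rbl2 did not in the other comparisons that tested them. Lpcat2, an enzyme of phospholipid remodelling whose start lies 0.028 Mb from that of Mmp2 (chr8:92855339-92919279), was at 11.56, 15.18, 5.128, 4.744, 12.11, 7.321 and 5.574 CPM in MMP9-/-. In MMPdKO it was at 0, 6.944, 5.113, 3.876, 4.972, 2.99 and 0 CPM. These are few counts, and the groups overlapped, with an estimate of -1.37 (SE 0.53, unadjusted p = 0.0175 in edgeR). In MMP2-/- against WT growth plates, whose libraries are others, Lpcat2 gave -1.21 (unadjusted p = 0.0262), and in the calvaria and cortical bone of MMPdKO against MMP9-/- it gave -1.25 and -1.21, all without passing adjustment.

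Ciapin1, a protein of iron-sulfur cluster assembly whose start is 1.99 Mb from Mmp2 (chr8:94819804-94838358), had estimates above 0. It was at 44.78, 52.63, 56.41, 56.92, 71.08, 97.37 and 68.75 CPM in MMP9-/- libraries. In MMPdKO libraries it was at 115, 60.76, 107.4, 89.14, 97.78, 68.78 and 86.31 CPM. The highest MMP9-/- value came from replicate 6, the library with the high Mmp9 count. The estimate was 0.50 (SE 0.17, unadjusted p = 0.00896 in edgeR) and 0.61 without that library, and it was 0.79, 0.61 and 0.62 in MMP2-/- against WT growth plates, calvaria and cortical bone. Rbl2, a relative of the retinoblastoma protein 1.76 Mb away, gave -0.98 in the growth plate of MMPdKO against MMP9-/- but -0.08, -0.14 and -0.20 in these 3 comparisons. Cpne2, named after its values were seen, gave -0.43, and -0.89, -0.39 and -0.81 in the others.

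A few genes differed between MMPdKO mice in a way that recurred in the other bones of the same animal. Ybx1-ps2 (chr6:37686239-37687195), a pseudogene of the RNA-binding protein gene Ybx1, was at 82.85, 8.68, 5.113, 38.76, 97.78, 0 and 2.213 CPM in the MMPdKO growth plates. Mouse 88 (replicate 5) had 97.8 CPM in growth plate, 94.2 in calvaria and 104 in cortical bone, and mouse 87 (replicate 4) had 38.8, 34.4 and 53.4 CPM. Mouse 67 (replicate 2) had 8.68, 0 and 1.8 CPM, and mouse 123 (replicate 6) had 0, 0.824 and 2.41 CPM. All 21 WT libraries of the series lay at 0 to 5.983 CPM, and the 18 MMP2-/- libraries at 0 to 133.1 CPM. Among the latter, mouse 53 was low in all its tissues, at 0.964, 1.95 and 0 CPM. In MMP9-/- growth plates replicate 6 held 24.16 CPM, while its calvaria and cortical bone held 1.46 and 2.75 CPM, and the other 6 growth plates held 1.012 to 5.574 CPM. The estimate was 2.59 and 3.95 without that library (adjusted p = 0.963 and 0.378 in edgeR). Reads of a pseudogene can be confused with those of its parent, and Ybx1 itself was at 536.9 to 766.6 CPM in the 14 libraries.

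Cap1 (chr4:122859047-122886056), an actin-binding protein named after its values were seen, was at 72.95, 24.3, 17.9, 58.13, 81.21, 14.95 and 17.71 CPM in the MMPdKO growth plates. The 3 highest were the MMPdKO mice with the most Ybx1-ps2, but MMP2-/- mouse 53, with little Ybx1-ps2, had 89.7 CPM of Cap1 in growth plate. MMP9-/- growth plates held 15.81 to 33.68 CPM and WT growth plates 10.91 to 21.28 CPM, while the MMP2-/- growth plates held 43.3 to 150 CPM. Its estimate for MMPdKO over MMP9-/- was 0.92 (SE 0.32, adjusted p = 0.963 in edgeR).

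**Figure D5:**
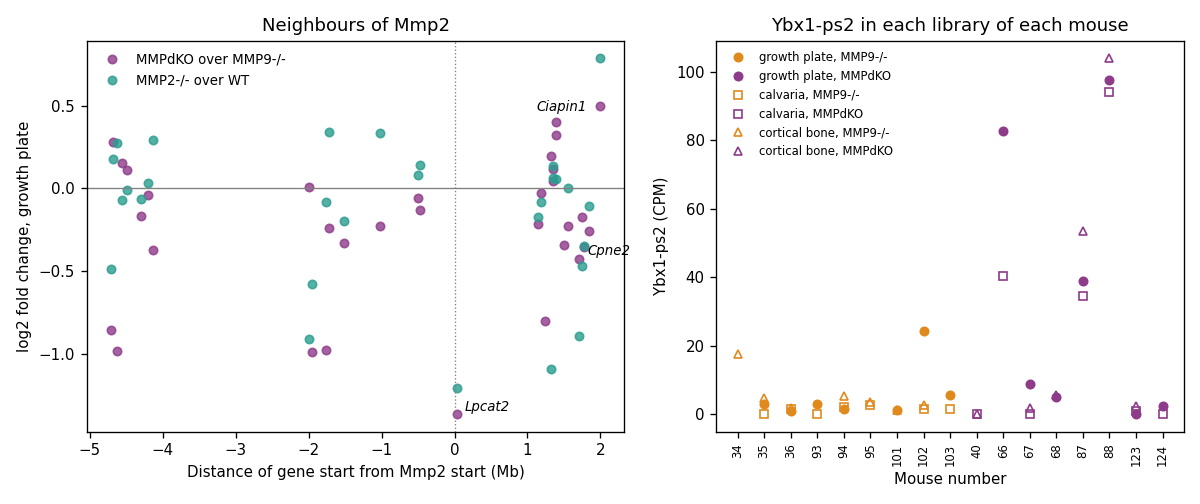
Left, log2 fold change in growth plate of the tested genes around Mmp2 against the distance of their start from that of Mmp2 in Mb, for MMPdKO over MMP9-/- (purple) and MMP2-/- over WT (green). Right, Ybx1-ps2 in CPM in each library of each mouse, where mouse 88 has 97.8, 94.2 and 104 CPM in its 3 tissues and most MMP9-/- libraries lie near 0.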

How the data were processed

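RNA was measured in 14 growth plate libraries, 7 per genotype, grouped by their titles. The raw counts deposited by the authors were read as such. The submitters' processing notes list bcl2fastq 2.20.0.422, cutadapt, STAR 2.7.3a, HTSeq, DESeq2 1.26.0 and GRCm38. The table holds 14688 genes, and how it was filtered, and whether molecular barcodes were collapsed, is not given in the sources used here. The authors' normalized values were not used.

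Counts were tested in R 4.3.3 with the quasi-likelihood F test of edgeR 4.0.16 (using limma 3.58.1) after TMM normalization, over genes that reached 15 counts in any of the 14 libraries. Benjamini-Hochberg adjustment ran over all tested genes. A DEG had an adjusted p under 0.05 and at least a 1.5-fold change, the thresholds of the study. CPM are counts scaled to the library total, in which 1 count was worth 0.527 to 2.99 CPM, and rare transcripts rest on few counts. The 3' tags do not cover the length of a transcript. No pair of replicates differed by as little as sampling noise. Interactions were tested over 27 growth plate libraries, and over both genotypes in 2 tissues. The share of variance was tested by PERMANOVA over all assignments of the libraries, an exact permutation test, with Euclidean distances of log2 CPM (prior count 2). The scripts were tested on simulated data.

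The comparison, its gene lists and its tests were chosen with earlier results of these data known. Genes were named as Mmp2 and Mmp9, the 10 smallest p per direction, up to 4 genes per list by p, and the 10 growth plate markers. Examples of such genes are given rather than all. Csf1r, Cd68, Cap1, Cpne2, Gadd45g, AC131705.1, Gm7859, Gm8607 and Ybx1 were named after their values were seen. The alternatives were RLE size factors, DESeq2 1.42.0, other count filters, a joint fit of 27 libraries, a replicate block, haemoglobin genes left out, muscle, neutrophil, osteoblast or erythroid covariates, each library left out and, added after seeing the data, 3 libraries left out, thinning to the lowest total, and MMP2 loss averaged over both MMP9 genotypes.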

Additional observations from a re-analysis of the deposited data

Results flagged for a closer look

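Of 200 groups of libraries checked, 27 (13.5%) had an end library far from the others, where chance gives about 1 in 20; 9 of them were MMP9-/- replicate 7 and 5 were MMPdKO replicate 5. MMP9-/- replicate 7 was low in Papss2, which supplies activated sulfate (18.6 CPM), and in Ccn2 (143 CPM). It was high in Ptk7 (39.0 CPM), Timp2 (977 CPM), Alpl (2064 CPM), Acp5 (12758 CPM), Col4a1 (1208 CPM) and Loxl1 (177 CPM), and it lay at 21.7 on the first principal component. MMPdKO replicate 5 was high in Rpl10-ps1 (118 CPM), Baz2b (76.2 CPM), Papss2 (124 CPM), Tnni1 (43.1 CPM) and Myh7 (71.3 CPM).

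MMP9-/- replicate 6 stood out in Mmp9 (1000.05 CPM) and in Ybx1-ps2 (24.2 CPM). MMPdKO replicate 1 stood out in Gm46522 (73.0 CPM) and Gm48561 (180.5 CPM), MMPdKO replicate 2 in Gm10481 (161 CPM), Sost (72.9 CPM) and Adipoq (71.2 CPM), and MMPdKO replicate 6 in Mylf-ps (53.8 CPM). Among the MMP9-/- libraries, replicate 3 was high in Runx2 (184 CPM) and replicate 1 low in Cd40 (8.67 CPM). Flags that rest on 1 or 2 counts against 0 were Gm10436 in MMP9-/- replicate 3 (0.733 CPM) and Gm46522 (1.05 CPM) and Gm48561 (0.527 CPM) in MMP9-/- replicate 5.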

How the results depend on the processing

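Mmp2 was the only call in 25 of 27 alternatives. Its log2 fold change was -4.02 to -3.77 with each library left out and -3.67 after thinning. With the replicate number as a block, and with the skeletal muscle score as a covariate, the number of DEGs and of genes past adjusted p was 3 each time. Both sets were Mmp2, Gm10436 and Gm8607, the last with 381.4 CPM in a single MMP9-/- library and 0 in all others. The replicate numbers do not pair the samples, which come from different mice: deviations of same-numbered libraries correlated at 0.01 on average (-0.22 to 0.20), and 1 replicate correlated best with its own number. With each library left out, the number of DEGs was 1 each time, the genes at an unadjusted p under 0.05 numbered 290 to 877, and the test of MMP9 status called 0 to 2 genes (Gm10436 and Gm7859 without MMPdKO replicate 4). The share of variance by genotype was 8.11 to 12.9% with each library left out, the highest without MMP9-/- replicate 7 (exact p = 0.0414). Of 2450 values for 92 genes, 19 changed sign, all of them for Col2a1, Comp, Hapln1, Ihh and Mmp9, which were not called. With the mouse as a block, 0 genes differed between growth plate and either bone. Thinning moved the median of metalloproteinase inhibitors to 0.07, of matricellular genes to 0.25 and of WNT antagonists to 0.31, and that of the neighbours of Mmp9 was -0.02 without MMP9-/- replicate 6. Depth limits genes under 20 CPM most.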

Other observations

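Averaged over both MMP9 genotypes, growth plates without MMP2 were set against those with it, a contrast added after the data were seen. It had 6 genes past adjusted p of 10461 tested in edgeR and 7 in DESeq2. Mmp2 was lower, at -4.14. Cap1 was higher, at 1.55 (adjusted p = 0.000837, edgeR), Ybx1-ps2 at 3.75 (adjusted p = 0.00294, edgeR) and AC131705.1 at 3.76 (adjusted p = 0.0119, edgeR). These averages join unequal estimates. For MMPdKO over MMP9-/- and MMP2-/- over WT, Cap1 gave 0.92 and 2.19, and Ybx1-ps2 gave 2.59 and 4.92. The differences with MMP9 status were -1.28 for Cap1 (unadjusted p = 0.00976, adjusted p = 0.921 in edgeR) and -2.34 for Ybx1-ps2 (adjusted p = 0.921, edgeR). AC131705.1 gave 5.15 in MMP2-/- over WT, and in MMPdKO growth plates it was at 12.4, 10.3 and 16.6 CPM in mice 66, 87 and 88, those with the most Ybx1-ps2, and at 0 to 2.99 CPM in the other 4. The growth plates of those 4 MMPdKO mice held Cap1 at 15 to 24.3 CPM and Ybx1-ps2 at 0 to 8.68 CPM. For these genes, loss of MMP2 and other differences between mice or lines cannot be told apart. Gadd45g, a growth arrest gene, was at 0.54 and Ciapin1 at 0.63, both with an adjusted p of 0.0414 in edgeR. Without any filter on low counts these became 0.0881 and 0.0900, so both calls were lost. With each of the 27 libraries left out in turn, the call of Ciapin1 was lost in 21 fits (adjusted p 0.00738 to 0.129, edgeR) and that of Gadd45g in 20 (0.0133 to 0.142). That of AC131705.1 was lost without WT replicate 6 alone (adjusted p = 0.0657), and those of Cap1 and Ybx1-ps2 were lost in none. Gadd45g was at 61.31 to 82.78 CPM in WT, 81.98 to 144.7 in MMP2-/-, 75.12 to 131.9 in MMP9-/- and 96.12 to 171.3 in MMPdKO growth plates. Lpcat2 gave -1.29 (adjusted p = 0.602, edgeR). The contrast contains the libraries of the main comparison and is not independent of it.

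Gm7859 on chromosome 15 had similar levels in the tissues of a mouse but differed between mice. It was at 24.7 and 25 CPM in the growth plate and cortical bone of MMP9-/- mouse 101, at 19, 26.2 and 30.3 CPM in the growth plate, calvaria and cortical bone of MMP9-/- mouse 102, at 14.9 and 22.9 CPM in the growth plate and calvaria of MMP9-/- mouse 103 and at 20.7, 21.9 and 38.8 CPM in those of MMPdKO mouse 87. In the other MMPdKO growth plates it was at 0 to 5.113 CPM, and in the other MMP9-/- growth plates at 0 to 2.93 CPM. Of the MMP2-/- mice, 6 held 17 to 48 CPM in every tissue measured, while mouse 128 was at 0 in all 3.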
